A study of Mus musculus with 4 samples.

Results

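The HoxC cluster is a row of 9 homeobox genes on mouse chromosome 15, and its chromatin was described here in adipose progenitors from peak lists of open chromatin. The members were all peaks that overlap 102700000 to 102900000 on chromosome 15 of build mm9, a window of 200 kb in which Hoxc13 lies near 102.751 Mb and Hoxc4 near 102.867 Mb. The window held 14 of 56823 peaks in subcutaneous library 1 (SAT 1), 4 of 22845 in SAT 2, 17 of 56907 in visceral library 1 (VAT 1) and 18 of 62279 in VAT 2. After merging of peaks that overlap by at least 1 bp, these made 28 of the 83319 regions found over the whole genome.

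The 4 libraries came from adipose progenitors, the precursor cells of adipocytes, freshly isolated from subcutaneous fat (SAT, 2 libraries) and visceral fat (VAT, 2 libraries) of C57BL/6 mice aged 16 weeks, with no treatment. Chromatin was mapped by ATAC-seq, which uses a transposase that inserts adapters wherever DNA is accessible, so that a pile of reads marks open chromatin. The labels give neither the fat pads, the surface markers used for isolation, nor whether a library came from a single mouse or a pool, so the spread between the libraries of a depot may be technical. Peak lists without read counts leave the depth unknown, and where a list has no peak, closed chromatin cannot be told from too few reads.

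Hox genes encode transcription factors that give cells their position along the body axis. Genes at one end of a cluster, such as Hoxc4 and Hoxc5, act in anterior parts of the embryo, and genes at the other end, such as Hoxc12 and Hoxc13, in posterior parts. Fat depots keep part of this code in adult life, and Hoxc8, Hoxc9 and Hoxc10 are among the Hox genes best known for depot-dependent expression in adipose tissue. In the RefSeq gene table of assembly GRCm38, which matched all 9 genes by symbol, the order along the chromosome is Hoxc13, Hoxc12, Hoxc11, Hoxc10, Hoxc9, Hoxc8, Hoxc6, Hoxc5 and Hoxc4, so that lower coordinates are posterior. The same table places the long noncoding RNA gene Hotair between Hoxc12 and Hoxc11, the microRNA gene Mir196a-2 between Hoxc10 and Hoxc9, and Mir615 within Hoxc5. Only the positions of Hoxc13 and Hoxc4, to the nearest 1 kb, were available on mm9, without saying whether they are gene starts or ends. Regions are therefore placed by their distance from Hoxc13, and no region is assigned to any of the 7 genes between these ends.

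Mir196a-2 is shown because its product is a regulator encoded inside the cluster that is known to repress Hoxc8. Its mature arms in RefSeq (GRCm38.p6) are given 5′ to 3′ with the seed, bases 2 to 8, in capitals.
mmu-miR-196a-5p: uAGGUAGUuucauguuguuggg
mmu-miR-196a-2-3p: uCGGCAACaagaaacugccuga
The 5p arm is the same sequence as that of Mir196a-1 on another chromosome, and miR-196b-5p of Mir196b has the same seed. The peak lists measure chromatin only and say nothing of the level of these RNAs.

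The RefSeq promoter table held Hoxc4, the anterior end of the cluster. The 250 bases before this start site (GRCm38.p6, plus strand) are given with CpG dinucleotides in capitals.
Hoxc4: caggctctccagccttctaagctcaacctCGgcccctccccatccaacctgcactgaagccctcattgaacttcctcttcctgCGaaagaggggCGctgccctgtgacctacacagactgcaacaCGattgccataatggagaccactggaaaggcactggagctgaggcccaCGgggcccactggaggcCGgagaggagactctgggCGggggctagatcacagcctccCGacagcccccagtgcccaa
They hold 8 CpG. Over the 300 bases of the table's entry, the GC content was 60.3%, against a median of 52.7% over 32851 promoters. The ratio of observed to chance CpG was 0.333, against a median of 0.384. Neither TATAAA nor TGATTNAT, searched on both strands, is in these 300 bases, and 13.6% and 3.22% of all promoters hold them. This start site was not placed on mm9 and was not set against peaks.

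Open chromatin in the HoxC window consisted of 4 sites seen in every library and many mostly weaker sites seen in fewer libraries. Of the 28 regions, 4 (14.3%) had a peak in all 4 libraries, against 23.2% of all regions in the genome. SAT 2 had 4 peaks in the window, so no more than 4 regions could be common to all. Without SAT 2, 7 regions had a peak in every remaining library. They were the 4 common regions and 3 with peaks in SAT 1, VAT 1 and VAT 2 only (10.7%, against 19.5% of all regions). By number of libraries, 3 regions (10.7%, against 20.6% of all) had a peak in 3 libraries and 7 (25%, against 19.8%) in 2 libraries. Another 14 (50%) had a peak in a single library. Genome-wide, 36.4% of regions had a peak in a single library. The score in the lists is the authors' peak caller score and is given here as a percentile within each list, where 100 is the strongest peak. The map of peaks by library shows the 4 common sites as the tallest peaks in SAT 1, VAT 1 and VAT 2.

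**Figure D1:**
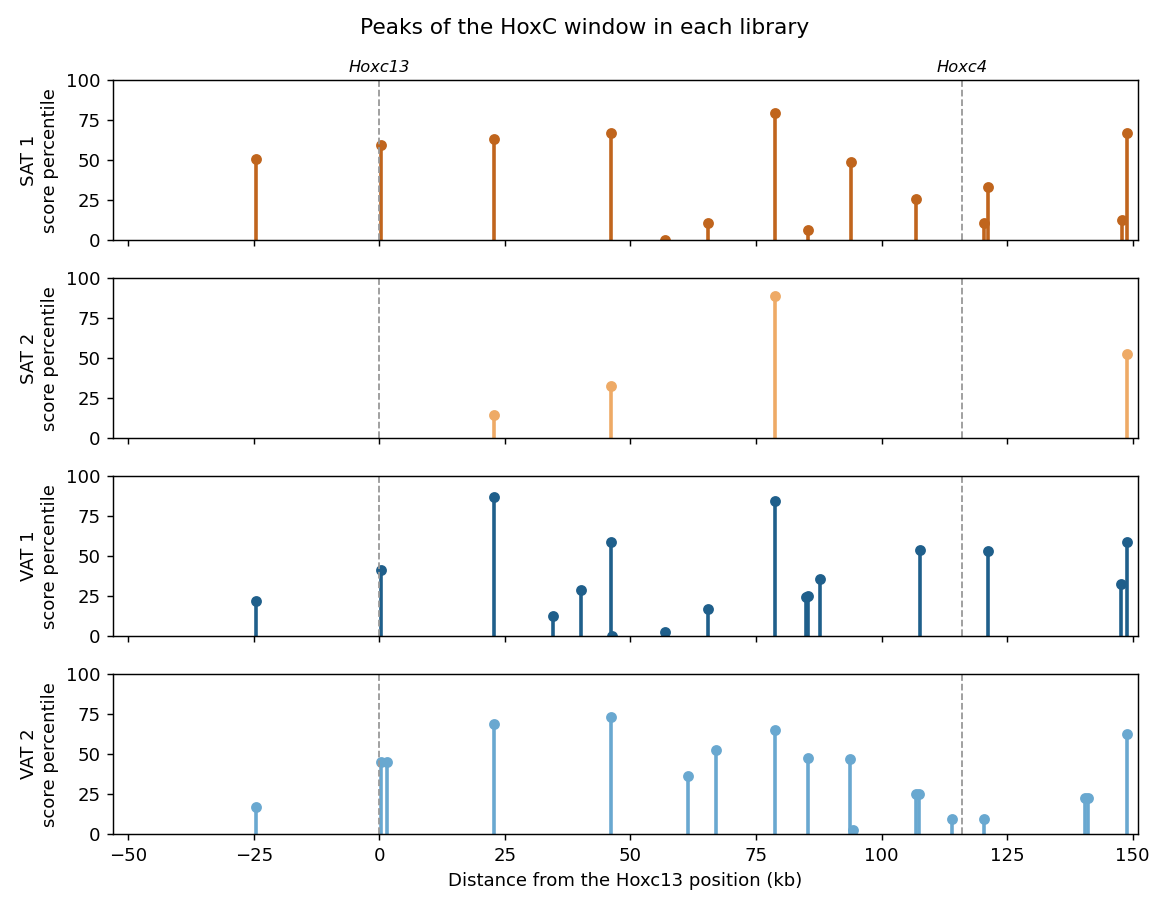
Peaks of the HoxC window in each library, with distance from the Hoxc13 position in kb on the horizontal axis and the score percentile within the list on the vertical axis. Each stem is a peak and dashed lines mark the Hoxc13 and Hoxc4 positions; all 4 peaks of SAT 2 stand at sites where every other library also has a peak.

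The strongest common site lay at 102829680 to 102830001, 78.8 kb from the Hoxc13 position and in the anterior part of the cluster. Its score was 195 in SAT 1, 198 in SAT 2, 257 in VAT 1 and 139 in VAT 2. These scores stood at the percentiles of 79.1, 88.7, 84.6 and 64.9 of their lists. It was the strongest HoxC peak of SAT 1 and of SAT 2, the second in VAT 1 and the third of the 4 common sites in VAT 2. Peak widths there were 253, 275, 320 and 314 bp in the same order, and the peak centres lay within 35.5 bp of each other.

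The second common site lay at 102773606 to 102774003, 22.8 kb from the Hoxc13 position and in the posterior part. Its score was 130 in SAT 1, 50 in SAT 2, 275 in VAT 1 and 152 in VAT 2, at the percentiles of 63.0, 14.6, 86.7 and 68.5. It was the strongest HoxC peak of VAT 1 and the weakest of SAT 2. The third lay at 102796933 to 102797202, 46.1 kb from the Hoxc13 position. It had scores of 142 in SAT 1, 68 in SAT 2, 130 in VAT 1 and 174 in VAT 2, at the percentiles of 67.1, 32.4, 58.5 and 73.4, and was the strongest HoxC peak of VAT 2. In VAT 1 alone a second, very weak peak (score 25, percentile 0.216) stood beside it at 102797251 to 102797418.

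The fourth common site, at 102899613 to 102900013, was also the widest region with 401 bp, and it lay 148.8 kb from the Hoxc13 position, beyond the Hoxc4 end. It had scores of 142 in SAT 1, 93 in SAT 2, 130 in VAT 1 and 130 in VAT 2, at the percentiles of 67.1, 52.7, 58.5 and 62.6. In VAT 2 this peak runs past the end of the window. The next region outside, at 102916256 to 102916554, had peaks in SAT 1, VAT 1 and VAT 2. On the other side, the last region before the window, at 102670261 to 102670370, had a peak in VAT 2 only.

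Compared with open regions elsewhere, the HoxC sites were narrow and of middling or low score. The median width of the 4 common HoxC regions was 360 bp, against 524 bp for the 19350 common regions of the genome. Over all regions the medians were 171.5 bp in HoxC and 228 bp genome-wide. The median width of single HoxC peaks was 190.5 bp against 215 bp over the whole list in SAT 1, and 153 against 208 bp in SAT 2. It was 152 against 223 bp in VAT 1, and 189.5 against 220 bp in VAT 2. Peaks at or above the percentile of 80 numbered 0 of 14 in SAT 1, 1 of 4 in SAT 2, 2 of 17 in VAT 1 and 0 of 18 in VAT 2. The percentile itself fixes the share over a whole list, where all but about 80% of peaks stand this high. SAT 1, VAT 1 and VAT 2 stood below this share. SAT 2 stood above it through 1 peak, and with 4 peaks no departure can be read. The counts are small, and no test was made of them.

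The site at the Hoxc13 position, the posterior end, was open in 3 libraries. The region at 102751151 to 102751388 had a score of 120 in SAT 1, of 90 in VAT 1 and of 89 in VAT 2, at the percentiles of 59.3, 41.4 and 45.3, and no peak in SAT 2. Of all SAT 1 peaks between the percentiles of 50 and 60, 26.7% lay in a region with a SAT 2 peak, so most peaks of this score had none in the short list. VAT 2 had a further peak 1.57 kb from the Hoxc13 position, at 102752507 to 102752625, with a score of 89. The 24.6 kb before the Hoxc13 region, from 102726508 to 102751150, were the longest stretch between regions of the window with no peak in any library. Before this stretch a single region stood alone, at 102726291 to 102726507, with a score of 100 in SAT 1, of 62 in VAT 1 and of 52 in VAT 2. Beyond it, the stretch with no peak reached 55.9 kb and crossed the edge of the window.

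The given Hoxc4 position, toward the anterior end, had less recurrent peaks than the given Hoxc13 position. Since either position may be a gene start or a gene end, these peaks are not read as those of promoters. The nearest region lay at 102865011 to 102865108 and had a peak in VAT 2 only, with a score of 43 (percentile 9.81) and a width of 98 bp. On the far side of the position, the region at 102871352 to 102871496 had scores of 46 in SAT 1 and 43 in VAT 2. Next to it, the region at 102872153 to 102872304 had scores of 72 in SAT 1 and 117 in VAT 1. Neither had a peak in SAT 2, and each was missing from a different visceral list.

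Merged regions were denser toward the anterior end, but the sites open in all 4 libraries were not, and the order of peak numbers differed between libraries. The 51 kb of the window before the Hoxc13 position held 1 region. The posterior part of the interval between Hoxc13 and Hoxc4, 58 kb long, held 8 regions, of which 2 were open in all 4 libraries and 4 in a single library. The anterior part, also 58 kb, held 12 regions, of which 1 was open in all 4 and 6 in a single library. The 33 kb beyond the Hoxc4 position held 7 regions, 1 of them open in all 4 and 4 in a single library. These counts correspond to 0.196, 1.38, 2.07 and 2.12 regions per 10 kb. By peaks, the anterior part held more than the posterior part in SAT 1 (5 against 4) and VAT 2 (9 against 4). It held fewer in SAT 2 (1 against 2) and VAT 1 (6 against 7).

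The balance between the posterior and anterior parts differed within the visceral depot. In the posterior against the anterior part, peaks covered 1024 against 940 bp in SAT 1 and 231 against 275 bp in SAT 2. They covered 1258 against 905 bp in VAT 1 and 713 against 1792 bp in VAT 2. Of all bases covered in the window, which include those outside both parts, the posterior part held a smaller share. This share was 36.8% in SAT 1, 33.9% in SAT 2, 43.6% in VAT 1 and 19.2% in VAT 2. VAT 1 had 7 peaks in the posterior and 6 in the anterior part, whereas VAT 2 had 4 and 9, and SAT 1 had 4 and 5. The visceral values lie on both sides of the subcutaneous ones, at 31.4 ± 17.3% for VAT and 35.3 ± 2.05% for SAT (SD, n = 2 each; two-sided exact permutation test, p = 1). Without VAT 2 the difference, VAT minus SAT, was 8.29 percentage points, and without VAT 1 it was -16.1, so its sign rests on which visceral library is used.

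**Figure D2:**
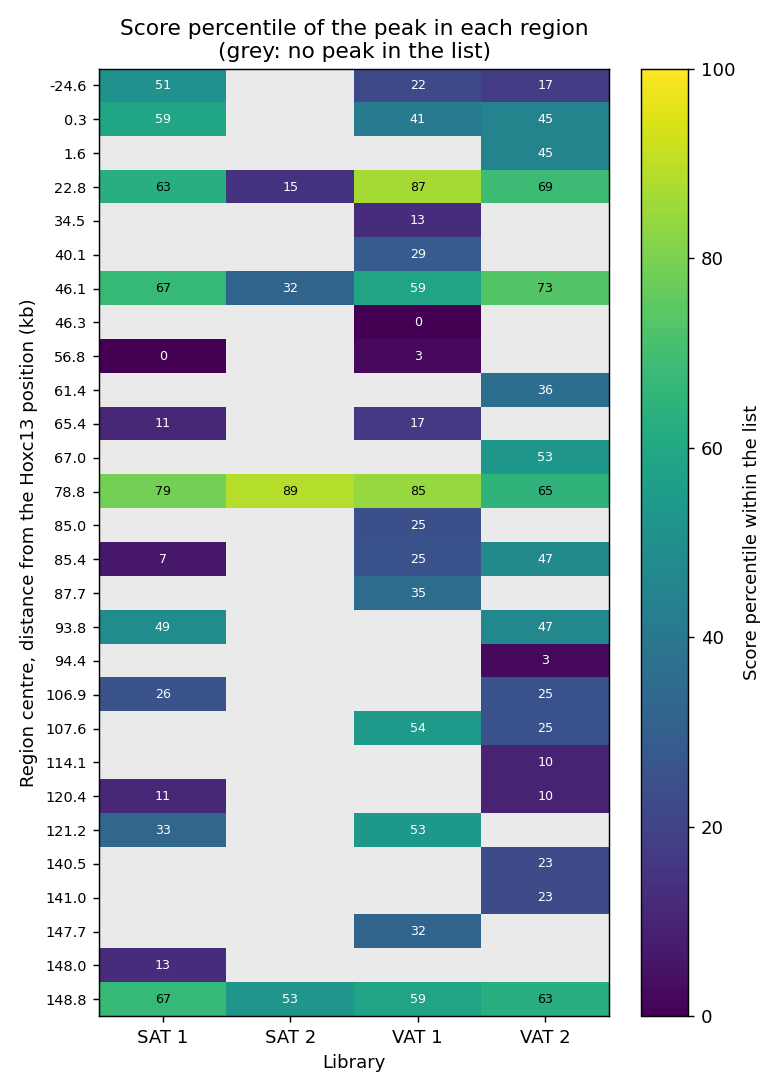
Score percentile of the peak in each of the 28 HoxC regions (rows, by distance of the region centre from the Hoxc13 position in kb, posterior at the top) in each library (columns). Grey cells have no peak in the list; 4 rows are filled in all columns and 14 rows in a single column.

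Few regions of the cluster were restricted to a depot, as in the genome as a whole. With a peak in both visceral libraries and in neither subcutaneous one there was 1 region of 28 (3.57%), against 4.60% of all regions. With a peak in both subcutaneous and in neither visceral library there were 0 of 28, against 0.110% of all regions. With 1 and 0 regions, no departure from the background can be read from these shares. Peaks only in SAT 1 and VAT 1 made up 3 regions (10.7%, against 9.37% of all), and peaks only in SAT 1 and VAT 2 made up 3 (10.7%, against 4.93%). VAT 2 alone held 7 regions (25%, against 19.6%) and VAT 1 alone 6 (21.4%, against 8.58%). SAT 1 alone held 1 (3.57%, against 7.84%) and SAT 2 alone 0 (against 0.360%).

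The region restricted to the visceral libraries lay at 102858486 to 102858656, in the anterior part at 107.6 kb from the Hoxc13 position. Its score was 118 in VAT 1 (percentile 53.7) and 61 in VAT 2 (percentile 25.3). Close to it, at 102857756 to 102858034, a separate region had scores of 63 in SAT 1 and 61 in VAT 2. When peaks within 500 bp were merged, these became a single region, and the number of visceral-restricted regions was 0.

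Against each other list, HoxC regions of SAT 1, VAT 1 and VAT 2 were shared less often than all regions of the list. Those of SAT 2 were shared more often. Of the 17 VAT 1 regions, 8 (47.1%) also had a peak in VAT 2 and 10 (58.8%) in SAT 1, against 72.3% and 79.2% of all VAT 1 regions. Of the 18 VAT 2 regions, 8 (44.4%) were found in VAT 1 and 10 (55.6%) in SAT 1, against 65.0% and 65.5% of all VAT 2 regions. Each visceral library thus had 10 regions in common with SAT 1 and 8 with the other visceral library. Of the 14 SAT 1 regions, 10 (71.4%) were found in VAT 1 and 10 in VAT 2, against 79.7% and 73.2% of all. In SAT 2, the shortest list, 4 of 14 SAT 1 regions (28.6%) were found, against 36.6% of all. For VAT 1 it was 4 of 17 (23.5%, against 36.4%), and for VAT 2 4 of 18 (22.2%, against 33.8%). With at least 1 other library, 13 of 14 SAT 1 regions (92.9%) were shared, against 88.1% of all SAT 1 regions. For VAT 1 the shares were 64.7% against 87.0%, and for VAT 2 61.1% against 73.3%. All 4 SAT 2 regions were found in every other list, against 93.8% of all SAT 2 regions in SAT 1, 93.8% in VAT 1 and 96.8% in VAT 2. No test was made of these shares, since regions are not replicates.

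Over each whole list, peaks of low score were shared less often than peaks of high score. The median HoxC percentile lay below the median of the list in every library. In VAT 1, 44.8% of all peaks in the lowest 10% of the list by score and 100% in the highest 10% lay in a region with a SAT 1 peak. In the cluster, 2 of the 17 VAT 1 peaks stood in the lowest 10%, where 1 was shared with SAT 1, and 0 in the highest 10%. Between the percentiles of 10 and 20 the share was 55.3% over all VAT 1 peaks, and 1 of 2 in HoxC. Between 20 and 30 it was 61.3%, and 2 of 4 in HoxC. Between 30 and 40 it was 73.3%, and 0 of 2 in HoxC. Between 40 and 50 it was 79.7%, and 1 of 1 in HoxC. Between 50 and 60 it was 89.7%, and 3 of 4 in HoxC, and between 80 and 90 it was 99.96%, and 2 of 2 in HoxC. For sharing with VAT 2, HoxC had 0 of 2 VAT 1 peaks in each of the ranges from 0 to 10, 10 to 20 and 30 to 40, against 45.2%, 52.6% and 63.9% of all VAT 1 peaks. It had 2 of 4 between 20 and 30 and 1 of 1 between 40 and 50, against 55.2% and 69.1%. At higher scores HoxC had 3 of 4 between 50 and 60 and 2 of 2 between 80 and 90, against 77.1% and 96.5%. Of VAT 2 peaks, HoxC had 0 of 3 shared with VAT 1 between 0 and 10, against 29.1% of all. It had 1 of 1 between 10 and 20 (against 38.1%) and 1 of 4 between 20 and 30 (against 45.5%). Between 30 and 40 it had 0 of 1 (against 47.3%), and between 40 and 50 2 of 4 (against 60.7%). Between 50 and 60 it had 0 of 1 (against 67.6%). Between 60 and 70 it had 3 of 3 (against 81.7%), and between 70 and 80 1 of 1 (against 91.4%). The part of score in the lower sharing of visceral HoxC peaks was not tested.

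**Figure D3:**
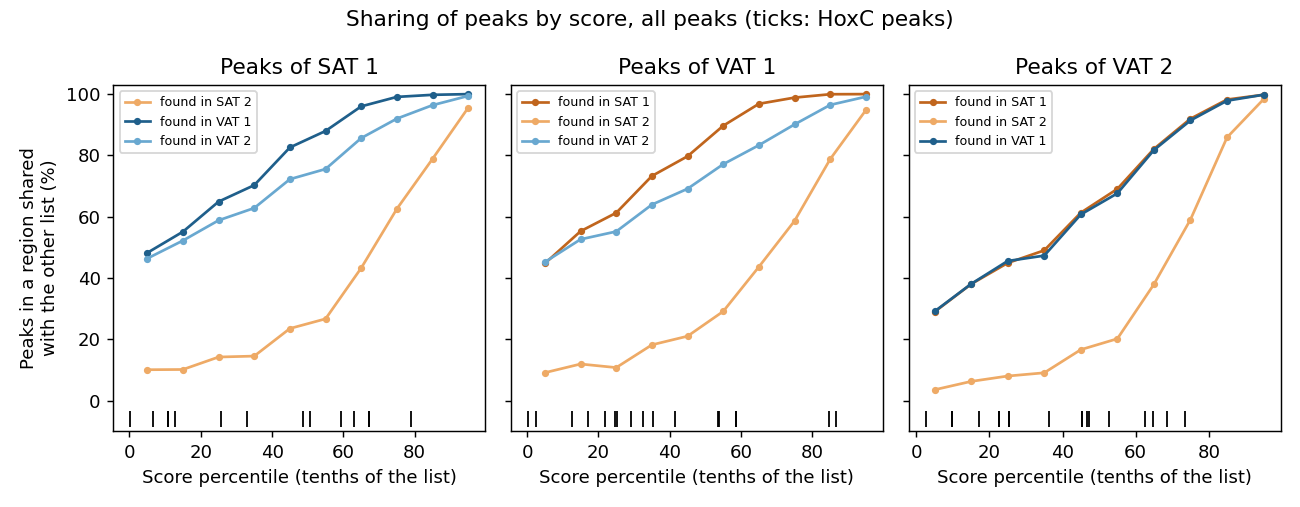
Percentage of all peaks of SAT 1, VAT 1 and VAT 2 (panels) that lie in a region with a peak of another library (coloured lines), by score percentile in steps of 10. Black ticks mark the percentiles of the HoxC peaks; sharing rises with score in every panel, and no HoxC peak of these lists reaches the highest 10%.

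The depots were then compared over libraries. Full lists gave 9 ± 7.07 HoxC peaks in subcutaneous and 17.5 ± 0.707 in visceral progenitors (SD, n = 2 each). The visceral values were above both subcutaneous values (p = 0.333, two-sided exact permutation test, the smallest p possible with 2 against 2 libraries). Without SAT 2, whose list is the shortest, the difference fell from 8.5 to 3.5 peaks. SAT 1 peaks covered 2785 bp of the window (1.39% of its length) and SAT 2 peaks 682 bp (0.341%). VAT 1 peaks covered 2885 bp (1.44%) and VAT 2 peaks 3712 bp (1.86%), and again both visceral values were the higher ones (p = 0.333, same exact test). Without SAT 2 the visceral mean was higher by 513.5 bp, in place of 1565 bp.

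The direction of the difference in peak number changed when the lists were made equally long. Per 10000 peaks of the list, the window held 2.46 peaks in SAT 1, 1.75 in SAT 2, 2.99 in VAT 1 and 2.89 in VAT 2 (p = 0.333, same exact test). Keeping only the 22845 strongest peaks of every list, the length of the shortest, turned the order. In these equal-length lists 4 HoxC peaks were left in SAT 1, 4 in SAT 2, 2 in VAT 1 and 3 in VAT 2 (p = 0.333, exact permutation test).

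The median percentile of the HoxC peaks was 40.8 in SAT 1, 42.6 in SAT 2, 32.4 in VAT 1 and 40.7 in VAT 2. The median of a whole list is 50 by construction, so HoxC peaks stood below it in every library. The subcutaneous values were above the visceral ones, at 41.7 ± 1.25 against 36.6 ± 5.90 (SD, n = 2 each; p = 0.333, two-sided exact permutation test). The values of SAT 1 and VAT 2 were nearly equal, and without VAT 1 the difference, VAT minus SAT, was -0.924 in place of -5.09. In equal-length lists the direction turned, with medians of 18.2 in SAT 1, 42.6 in SAT 2, 64.3 in VAT 1 and 14.3 in VAT 2, where the depots overlapped (difference 8.88, p = 1, same exact test).

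Equal-length lists allow ranks to be set side by side, and 4 HoxC regions remained in them. The 2 with a peak in all 4 lists were those at 22.8 and 78.8 kb from the Hoxc13 position. At 22.8 kb the rank from the top was 21016.5 in SAT 1, 19507 in SAT 2, 7575.5 in VAT 1 and 19587.5 in VAT 2, so the values of VAT 2 lay between those of the subcutaneous libraries. At 78.8 kb the rank was 11883 in SAT 1, 2575.5 in SAT 2, 8745.5 in VAT 1 and 21884 in VAT 2, and the depots overlapped again. Thus 0 of 2 regions ranked higher in both visceral libraries and 0 of 2 in both subcutaneous ones, against 15.8% and 15.0% of the 13315 regions compared genome-wide.

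In the other 2 regions of the equal-length lists, peaks just below the lowest score kept set which libraries had a peak. The site at 46.1 kb kept its peaks in SAT 1, SAT 2 and VAT 2, and its VAT 1 peak, with a score of 130, fell below 134, the lowest score of that restricted list. The site at 148.8 kb, beyond the Hoxc4 end, kept its peaks in SAT 1 and SAT 2 only. Its visceral peaks, each with a score of 130, lay just below the lowest scores of 134 in VAT 1 and 131 in VAT 2. It was 1 of 4 HoxC regions (0 of 4 for visceral) restricted by depot in these lists, against 1.50% of all regions for subcutaneous and 1.81% for visceral progenitors, and in the full lists it had a peak in every library.

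The number of sites in the cluster was high for its length. Among 10112 windows of 200 kb that held a region, the median window had 6 regions, and 98.6% had fewer than the 28 of HoxC. By list, 91.1% of windows had fewer peaks in SAT 1, 75.8% in SAT 2, 95.4% in VAT 1 and 95.3% in VAT 2. By covered bases the shares were lower, at 80.8%, 67.5%, 81.3% and 86.0%. In equal-length lists (added after seeing the data), 62.3% of windows had fewer than the 4 HoxC regions, since most of the 28 regions had no peak that high in its list.

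**Figure D4:**
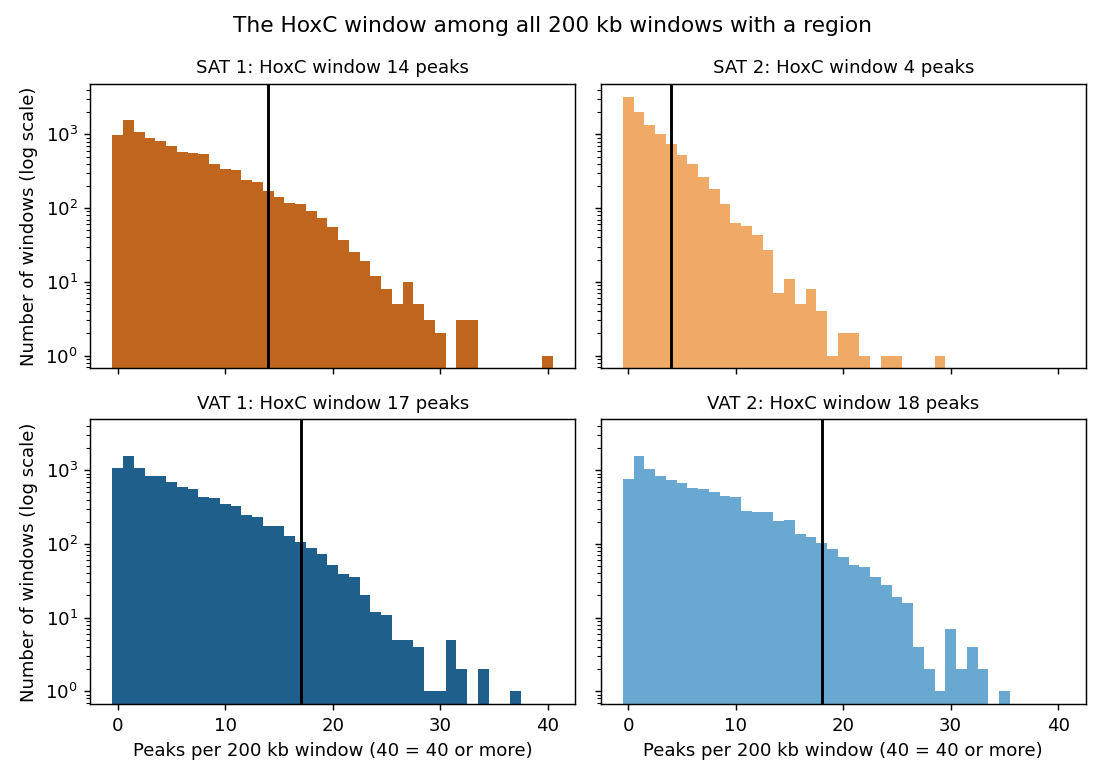
Number of peaks per window of 200 kb over the genome in each library (bars, log scale), with the HoxC window as a black line. The line stands at 14 peaks in SAT 1, 4 in SAT 2, 17 in VAT 1 and 18 in VAT 2, toward the upper end of the windows in SAT 1, VAT 1 and VAT 2.

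Most other windows rich in peaks had stronger and more often shared sites. Of the 796 windows with at least 20 regions, 5.15% had a larger share of regions in a single library than HoxC (50%), and the median was 31.9%. For regions open in all 4 libraries the median was 24.1%, and 79.6% of these windows had a larger share than the 14.3% of HoxC. The highest HoxC peak of SAT 1 was at the percentile of 79.1, whereas windows with at least 10 SAT 1 peaks had a median highest peak of 93.7, and 6.98% of them had a lower one than HoxC. For VAT 1 the values were 86.7 against 93.5, with 21.9% of windows lower, and for VAT 2 they were 73.4 against 93.9, with 3.35% lower. These backgrounds were chosen after seeing the data.

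The remaining HoxC regions had peaks in at most 3 libraries, with scores near or below the median of their lists. In the posterior part, VAT 1 alone had peaks at 102785438 to 102785607 (score 52) and 102791029 to 102791146 (score 71). The region at 102807717 to 102807899, at the border of the posterior and anterior parts, had the lowest score of SAT 1 in the window (23) and a score of 36 in VAT 1.

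In the anterior part, the region at 102816318 to 102816436 had scores of 46 in SAT 1 and 55 in VAT 1. It lay between VAT 2 peaks at 102812291 to 102812541 (score 75) and 102817971 to 102818122 (score 104), the latter the highest-scoring HoxC region found in a single library. The region at 102836340 to 102836516 had a score of 39 in SAT 1, of 66 in VAT 1 and of 92 in VAT 2, all below the median of their lists, and no peak in SAT 2. It was flanked by VAT 1 peaks at 102835973 to 102836105 (score 64) and 102838620 to 102838724 (score 80). The region at 102844622 to 102844957 had nearly equal percentiles of 48.6 in SAT 1 and 46.8 in VAT 2 and no peak in VAT 1. Beside it VAT 2 had a weak peak at 102845286 to 102845510 (score 33).

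Beyond the Hoxc4 end, VAT 2 had a pair of peaks at 102891355 to 102891663 and 102891955 to 102892123, each with a score of 60. VAT 1 had a peak at 102898640 to 102898811 (score 76) and SAT 1 a separate peak at 102898919 to 102899040 (score 47), close to the fourth common site.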

How the data were processed

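The submitters' processing notes name Bowtie2, MACS2 and the build mm9, without versions. The sources used here do not give their options, duplicate removal, a transposase shift or repeat filters. Peaks were called per library, since each has its own list. Scores were deposited by the authors as whole numbers, the lowest being 20 in each list, and no header gives their scale. They were used as percentiles or ranks within a list.

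Depots and replicate numbers came from the sample titles. Peaks were merged at 1 bp overlap. Regions were called restricted where both libraries of 1 depot, and no library of the other, had a peak. A tie of scores took the mean rank. Values per library were compared by two-sided exact permutation tests. Windows of 200 kb were laid so that the HoxC window is 1 of them. Positions count from 1 on mm9. Interval code was tested on simulated lists and gave the same 83319 merged regions as bedtools 2.31.1; Python 3.11.15, numpy 2.4.6 and pandas 2.3.3 were used.

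The members and lists were chosen with earlier results of these data known. The rule for named regions took those open in all 4 libraries, those restricted to a depot, the widest, the longest stretch without peaks and those whose ranks did not overlap between depots; the others were named after their values were seen, to account for every member. Coordinates were not converted between builds.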

Additional observations from a re-analysis of the deposited data

How the results depend on the processing

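Differences are VAT minus SAT unless stated. With equal-length lists the sign turned for HoxC peaks (-1.5), covered bases (-246.5), peaks per 10000 (-0.657), median percentile (8.88) and posterior share (11.1 percentage points). In the top 50% of each list it turned for peaks per 10000 (-0.0742) and posterior share (7.03). The cause was not tested. Regions numbered 4 with equal-length lists and 9 in the top 50%, with 2 and 2 open in all 4 libraries; fewer peaks enter by construction. Visceral-restricted regions (1) were 0 with equal-length lists, 0 in the top 50% and 0 when peaks within 500 bp were merged, and subcutaneous-restricted regions (0) were 1 with equal-length lists. By ranks of the full lists, whose lengths differ, 1 region (beyond the Hoxc4 end) stood higher in both subcutaneous libraries. Its ranks of 23605.5 in VAT 1 and 23294 in VAT 2 exceed the 22845 peaks of SAT 2. Any SAT 2 peak there would rank higher, and no genome-wide share is given for this setting. The share of windows with fewer regions was 62.3% with equal-length lists and 86.0% in the top 50%, both added after seeing the data.

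Leaving out 1 library at a time gave differences of 3.5 to 13.5 peaks, 513.5 to 2616.5 covered bases, 0.475 to 1.19 peaks per 10000, -9.26 to -0.924 in median percentile and -16.1 to 8.29 in posterior share. It gave 21 to 28 regions, 4 to 7 in every remaining library, 1 to 8 visceral-restricted and 0 to 1 subcutaneous-restricted regions, and 0 to 1 ranked higher in either depot. For the region counts without 1 library no genome-wide share is given, so they are not read as a result about the cluster. A 50% reciprocal overlap changed none of the region counts.

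A replicate block left the difference of 8.5 peaks unchanged, as it must with 1 library of each depot per replicate number. The unchanged difference is therefore no check on the pairing. The block gave p = 0.5 (exact sign-flip permutation test, the smallest p that 2 pairs allow). The labels do not say what a shared replicate number stands for. Deviations of SAT 1 and VAT 1 from their depot means had r = 0.152 over 19350 common regions, which are not independent. Genome-wide, peaks only in SAT 1 and VAT 1 made up 9.37% of regions, and only in SAT 1 and VAT 2 4.93%. Peaks only in SAT 2 and VAT 2 made up 0.652%, and only in SAT 2 and VAT 1 0.0960%. Whether the numbers mark pairs or batches was not tested. With no read counts, no limit of detection can be given.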

Other observations

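The windows of 200 kb on either side of HoxC also held more regions than the median window of 6, with 15 before the Hoxc13 end and 25 beyond the Hoxc4 end. In SAT 1 the window beyond the Hoxc4 end held 21 peaks, more than the 14 of the HoxC window, and the window before the Hoxc13 end held 11. In VAT 1 these numbers were 19 and 9, against 17 in HoxC, and in VAT 2 they were 21 and 12, against 18.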
